A study of Mus musculus with 8 samples.

Results

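The genes described here are 36 neural genes of the mouse: 19 genes of neural progenitors, 15 genes of neurons and 2 genes of glia. A gene was measured where the array had a probe set annotated to exactly 1 gene symbol, and the probe set brightest on average across the 8 arrays stood for the gene. By this rule 35 of the 36 were measured, among 18193 genes in all: 18 progenitor genes, all 15 neuron genes and both glial genes. Pax2 was dropped by the rule and was not analysed here. All 8 samples were embryonic stem (ES) cells of the mouse, from strain 129S4/Svjae and labelled male and agouti, grown in medium with LIF, the cytokine that holds these cells undifferentiated. Each sample had been infected with a lentivirus carrying a short hairpin RNA and selected with puromycin, then passaged a few times, so the controls share infection and selection with the knockdowns. The control hairpin was directed against GFP (3 arrays), and the others against Jmjd2b (3 arrays) or Jmjd2c (2 arrays). Total RNA of each sample was hybridised as biotinylated cRNA to 1 array. Separate infections or cultures behind the replicates are not stated in the labels, and the p-values therefore cover the spread of these samples alone, which may be technical.

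Jmjd2b and Jmjd2c, now named Kdm4b and Kdm4c, are demethylases that remove methyl groups from lysines of histone H3, among them the mark on lysine 9 that is typical of silent chromatin. Neural progenitors are built by transcription factors such as Pax6, the basic helix-loop-helix factors of the Neurog, Neurod and Olig families, and the homeodomain factors of the Nkx, Dlx and Lhx families. Neurons add a second layer of genes for microtubules, growth cones, RNA-binding proteins and synaptic vesicles, and many of those genes are held silent outside neurons by the repressor REST. Several genes read as neuronal, Stmn2 among them, are also transcribed in ES cells, so their presence does not mark a neuron by itself.

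Among all members, Fabp7 and Pax6 rose and Mapt and Stmn3 fell against the control in both knockdowns. For Pax6 this refers to the probe set used, which was the brightest on average only with the knockdown arrays included. To show what lies upstream of Fabp7, Pax6, Mapt and Stmn3, RefSeq promoter windows (build GRCm38.p6) were matched by symbol. At least 1 window was found for 26 of the 35 measured members, 35 windows in all, but none for Mapt. Each window holds the 250 bases before an annotated start, written 5′ to 3′ on the gene's strand. Capitals mark CAGATG, read on either strand and so also as CATCTG, which is a 6-letter form of the E-box that basic helix-loop-helix factors such as the Neurog and Neurod proteins can bind. The windows shown belong to Fabp7 (chr10:57784673-57784922, plus strand), to 2 starts of Pax6 (chr2:105668646-105668895 and chr2:105682213-105682462, plus strand) and to Stmn3 (chr2:181314501-181314750, minus strand).
Fabp7: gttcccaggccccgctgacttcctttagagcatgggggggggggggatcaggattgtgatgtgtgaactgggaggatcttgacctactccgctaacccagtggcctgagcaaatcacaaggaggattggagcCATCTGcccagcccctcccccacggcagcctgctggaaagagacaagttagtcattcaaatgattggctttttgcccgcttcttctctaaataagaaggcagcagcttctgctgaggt
Pax6 first start: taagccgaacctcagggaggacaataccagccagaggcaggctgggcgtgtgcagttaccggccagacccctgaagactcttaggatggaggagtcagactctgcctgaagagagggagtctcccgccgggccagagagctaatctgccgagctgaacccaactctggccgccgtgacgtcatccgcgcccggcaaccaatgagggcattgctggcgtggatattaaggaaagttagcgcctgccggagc
Pax6 second start: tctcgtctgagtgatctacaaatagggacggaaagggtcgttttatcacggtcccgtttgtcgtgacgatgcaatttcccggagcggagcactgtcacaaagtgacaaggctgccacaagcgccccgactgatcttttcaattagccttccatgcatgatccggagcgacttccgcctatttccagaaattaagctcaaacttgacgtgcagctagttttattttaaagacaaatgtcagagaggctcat
Stmn3: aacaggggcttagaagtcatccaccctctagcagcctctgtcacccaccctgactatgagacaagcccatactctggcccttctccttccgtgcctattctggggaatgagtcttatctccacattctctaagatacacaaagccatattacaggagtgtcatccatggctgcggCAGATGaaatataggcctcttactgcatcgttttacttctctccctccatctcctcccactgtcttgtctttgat
The match began 118 bases before the start of Fabp7 and 75 bases before that of Stmn3, and neither Pax6 window held one. Over all 32851 windows of this length 14.4% held CAGATG, and 6 of the 35 member windows (17.1%), from 4 members, did. The related E-box CAGCTG, which reads the same on both strands and shares no position with a CAGATG match, stood in 13% of all windows and in 5 member windows (14.3%). Both shares lay near those of all windows. Overlapping windows of Elavl4 hold the same site of each motif, so both counts include that site more than once. The members' windows had a median of 14 CG dinucleotides against 6 over all windows. The 18 windows of progenitor genes had a median of 20 and the 15 windows of neuron genes a median of 8, while the Fabp7 window held 4, the Stmn3 window 3 and the Pax6 windows 15 each.

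The members lay mostly low in these cells. Values are deposited intensities, and differences are given on the scale log2(intensity + 16), which shrinks the changes of dim genes. Of the 18 progenitor genes, 14 had a mean intensity under 50, 6 had a mean under 16 (Neurog1, Neurog2, Neurod4, Olig2, Nkx6-1 and Dlx1), and 2, Neurog3 and Neurod1, lay above the median level of all genes (an intensity of 98.8). Of the 15 neuron genes, 9 lay above that median and 2, Dcx and Snap25, had a mean under 16. The brightest neuron probe set was that of Stmn2, a stathmin that destabilises microtubules in growing axons, which read 6650, 5388 and 6040 in the controls. Set beside this, the 12 ES cell markers were all above the median level of all genes. Their summed intensity was 72160 to 73583 in the controls, 54567 to 58659 on the Jmjd2b knockdown arrays and 60081 to 62064 in the Jmjd2c knockdown. These markers did not change alike. Klf4 was at 34.3% and 43.2% of control in the Jmjd2b and Jmjd2c knockdowns, and Esrrb at 34.1% and 52.0%. Pou5f1 was at 99.9% and 95.5%, and Gdf3 rose to 152% and 176%. In bulk RNA, fewer cells of a type and less RNA per cell cannot be told apart.

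The hairpins lowered their targets. Kdm4b read 468 ± 157 (SD, n = 3) in the controls against 32.2 ± 16.8 (SD, n = 3) in the Jmjd2b knockdown, 6.89% of control. Kdm4c read 1281 ± 63.2 (SD, n = 3) in the controls, and 142 and 469 in the Jmjd2c knockdown arrays 1 and 2. Each hairpin group was also below every control for the other gene: under the Jmjd2b hairpin Kdm4c was at 57.3% of control (−0.79, limma, adjusted p = 0.102), and under the Jmjd2c hairpin Kdm4b was at 56.6% (−0.74, limma, adjusted p = 0.178). The intensities of the arrays had medians between 44.74 and 46.62. Control arrays 1 and 2 and Jmjd2b knockdown array 2 had a floor at exactly 1 that the other 5 arrays lacked. Exact values were also shared more often within some sets of arrays: Jmjd2b knockdown array 3 with both Jmjd2c knockdown arrays (0.588% to 0.606% of values), and control array 3 with Jmjd2b knockdown array 1 (0.448%), against 0.027% to 0.078% in other pairs. Control arrays 1 and 2 and Jmjd2b knockdown array 2, those with the floor, belonged to no such set. Where these sets were fitted as a block, those arrays were put together as 1 further level. The actin 3′ to 5′ ratio, a measure of RNA integrity, was 1.63, 1.45 and 1.56 in the controls, 1.42, 1.36 and 1.31 on the Jmjd2b knockdown arrays and 1.48 and 1.43 in the Jmjd2c knockdown. It was lower in the Jmjd2b knockdown than in every control, while the Jmjd2c knockdown overlapped the controls. The Gapdh ratio overlapped between all groups (0.936 to 0.98 in the controls, 0.937 to 0.987 and 0.943 to 0.987 in the knockdowns). The part of the actin ratio in the changes of the members was not tested.

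**Figure D1:**
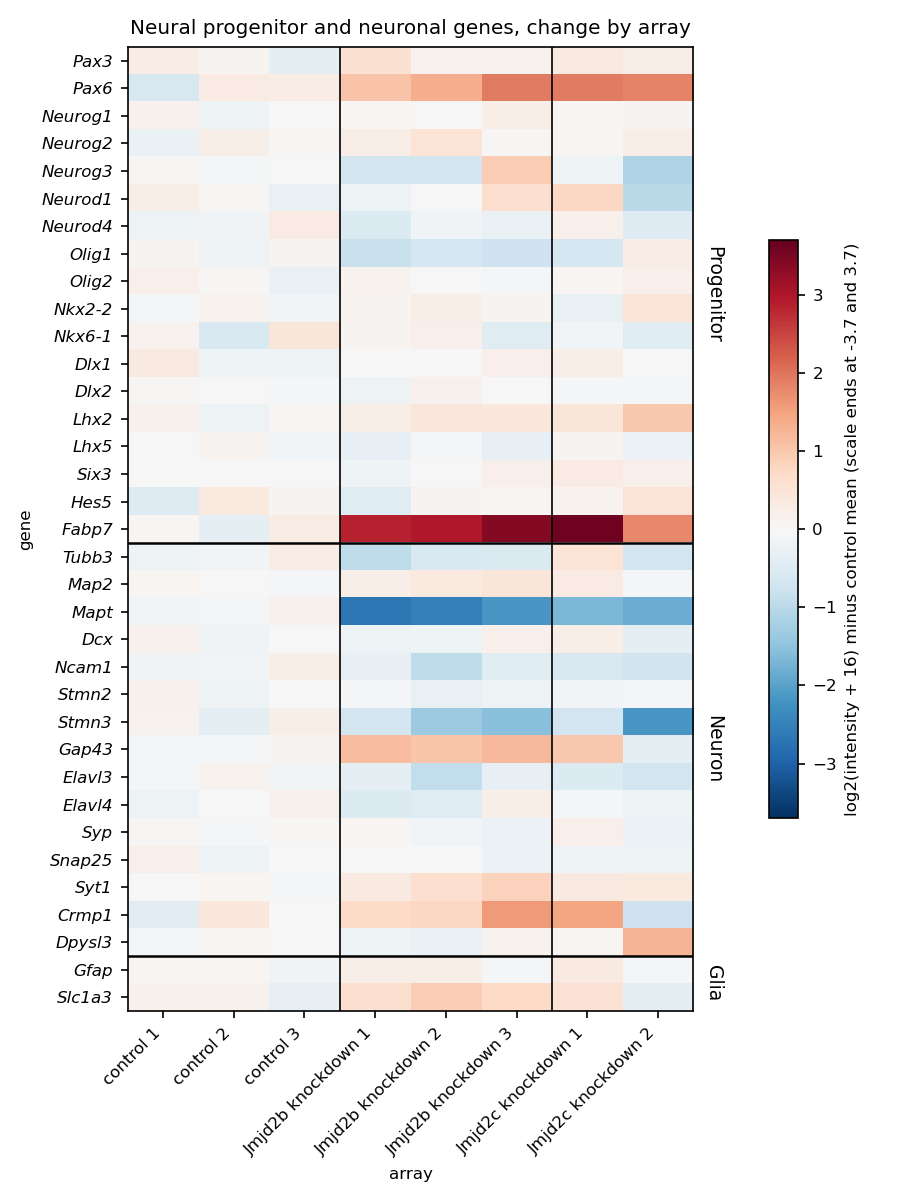
Each cell is 1 gene on 1 array, coloured by log2(intensity + 16) minus the mean of the 3 controls, with genes in rows grouped as progenitor, neuron and glia and arrays in columns by group. Fabp7 and Pax6 are red and Mapt and Stmn3 blue on all 5 knockdown arrays, while most progenitor rows stay near 0.

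The first comparison asked which neural genes differ when Jmjd2b is depleted. Of the progenitor genes, Fabp7 and Pax6 rose and Olig1 fell, and of the neuron genes, Gap43 and Syt1 rose and Mapt and Stmn3 fell. The glial gene Slc1a3 rose as well. In all, 8 of 35 members (22.9%) passed an adjusted p of 0.05 in limma, against 24.4% of all genes (11.6% up and 12.9% down). The members' share was near that background. Taken apart, it was 16.7% of the progenitor genes (3 of 18) and 26.7% of the neuron genes (4 of 15). Calls were more frequent among bright genes: 36.7% of all genes above the median level and 12.2% of the others passed. Above that level lay 2 of the progenitor genes and 9 of the neuron genes. The median change was 0.04 over the progenitor genes and −0.10 over the neuron genes, beside −0.03 over all genes. At an unadjusted p of 0.05, 3 progenitor and 8 neuron genes passed, against 35.5% of all genes. The groups did not overlap in 4 progenitor and 9 neuron genes, against 44.8% of all genes.

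Fabp7 encodes a fatty acid binding protein of radial glia, the progenitors of the developing brain. Its probe set (1450779_at) read 11.7, 4.79 and 15.7 in the controls against 174, 188 and 261 in the Jmjd2b knockdown. All 3 knockdown arrays lay above every control, and the difference was 3.07 ± 0.39 in log2 units (SE, limma, adjusted p = 0.000534). The controls were below 16, so the size of this rise depends on the added constant: it was 3.90 with 4 in place of 16 and 1.85 with 64.

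Pax6 encodes a paired-box and homeodomain factor that patterns the forebrain and eye and holds cortical progenitors. Its probe set (1419271_at) read 15.6, 43.0 and 41.6 in the controls against 82.2, 105 and 165 in the knockdown. The groups did not overlap, control array 1 was the lowest of all, and the difference was 1.44 ± 0.28 (SE, limma, adjusted p = 0.00434). A dimmer Pax6 probe set (1452526_a_at), tested on its own among all probe sets, rose by 0.58 (limma, adjusted p = 0.0186). The dimmest ones, 1425960_s_at and 1456342_at, had changes of 0.33 and 0.18 that did not pass the threshold. The second brightest over all arrays (1437816_at) had a change of −0.45 (limma, adjusted p = 0.135), so the probe sets of Pax6 did not move as 1. In the controls 1437816_at was the brightest of Pax6, with a mean of 71.0 against 33.4 for 1419271_at. The probe set 1419271_at was thus the brightest on average only with the knockdown arrays included. The mean over all Pax6 probe sets rose by 0.42 (limma, adjusted p = 0.028).

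Olig1 encodes a basic helix-loop-helix factor of the oligodendrocyte lineage. It read 44.97, 33.2 and 44.0 in the controls against 16.1, 20.1 and 16.9 in the Jmjd2b knockdown. Every knockdown array was below every control, with a difference of −0.75 ± 0.22 (SE, limma, adjusted p = 0.0312). The call was lost without control array 1 (−0.69, limma adjusted p = 0.1), control array 3 (−0.70, adjusted p = 0.107), or any 1 of Jmjd2b knockdown arrays 1 (−0.71, adjusted p = 0.0898), 2 (−0.80, adjusted p = 0.0704) and 3 (−0.73, adjusted p = 0.0792). It was also lost with array type, the floor or none, as a block (−0.74, limma adjusted p = 0.067), and with the sets of arrays that share values as a block (−0.73, adjusted p = 0.14).

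The remaining progenitor genes showed no change past the threshold. Neurog3, the basic helix-loop-helix factor of endocrine and some neural precursors, read 136, 128 and 132 in the controls against 75.9, 76.4 and 271 in the Jmjd2b knockdown, with array 3 alone above the controls. Neurod1, which acts downstream of the Neurog factors and was singled out after its values were seen, read 469, 414 and 324 in the controls against 344, 395 and 625 in the knockdown, again highest on array 3. Lhx2, a LIM-homeodomain factor of the cortex and eye, had a change of 0.34 (limma, adjusted p = 0.192). The other 12 genes lay between −0.30 (Neurod4) and 0.28 (Pax3). These 12, the paired-box gene Pax3, the basic helix-loop-helix genes Neurog1, Neurog2, Neurod4 and Olig2, the homeobox genes Nkx2-2, Nkx6-1, Dlx1, Dlx2, Lhx5 and Six3 and the Notch target Hes5, all had means under 50, where a change is hard to measure.

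Among the neuron genes, Mapt changed most. It encodes tau, a protein that binds axonal microtubules. Its probe set (1455028_at) read 231, 238 and 283 in the controls against 25.7, 30.1 and 44.0 in the Jmjd2b knockdown. The groups lay far apart, and the difference was −2.45 ± 0.17 (SE, limma, adjusted p = 3.4e-05). Tested singly, the probe sets 1424719_a_at and 1424718_at of Mapt also fell, with changes of −2.06 and −2.15 (limma, adjusted p = 9.1e-05 and 8.1e-05), while the dimmest (1417885_at) had a change of −0.05. The fall passed the test in each of the 20 alternatives run. Within the arrays with the floor, where only Jmjd2b knockdown array 2 was a knockdown, it was −2.44. Within those without the floor, where only control array 3 was a control, it was −2.58.

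Stmn3, a stathmin related to Stmn2, read 552, 384 and 588 in the controls against 307, 188 and 161 in the knockdown. All knockdown arrays were below the controls, and the difference was −1.18 ± 0.35 (SE, limma, adjusted p = 0.0332). The second Stmn3 probe set (1460181_at) fell by 1.0 (limma, adjusted p = 0.0353). The call was lost without Jmjd2b knockdown array 2 (−1.11, limma adjusted p = 0.112) or 3 (−1.01, adjusted p = 0.11), and without control array 1 (−1.11, adjusted p = 0.104) or 3 (−1.07, adjusted p = 0.122).

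Gap43, a protein of the growth cone membrane, read 180, 176 and 199 in the controls against 424, 390 and 442 in the Jmjd2b knockdown. The groups were clearly separate, and the difference was 1.11 ± 0.28 (SE, limma, adjusted p = 0.0156). Its SE comes from the spread over all 3 groups, and the Jmjd2c knockdown arrays of Gap43 lay far apart. The call was lost without control array 1 (1.10, limma adjusted p = 0.0521), and with the sets of arrays that share values as a block (1.05, adjusted p = 0.103). Syt1, the calcium sensor of synaptic vesicles, read 29.4, 32.8 and 28.3 in the controls against 42.2, 54.7 and 67.9 in the knockdown. The arrays did not overlap, and the difference was 0.60 ± 0.15 (SE, limma, adjusted p = 0.0175). The other probe sets of Syt1 had changes of 0.17, −0.06 and 0.23, none past the threshold, and the mean over all its probe sets was at 0.24 (limma, adjusted p = 0.197). The Syt1 call was lost without Jmjd2b knockdown array 2 (0.60, limma adjusted p = 0.0617) or 3 (0.47, adjusted p = 0.0556), or control array 1 (0.59, adjusted p = 0.0565) or 3 (0.57, adjusted p = 0.0719).

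**Figure D2:**
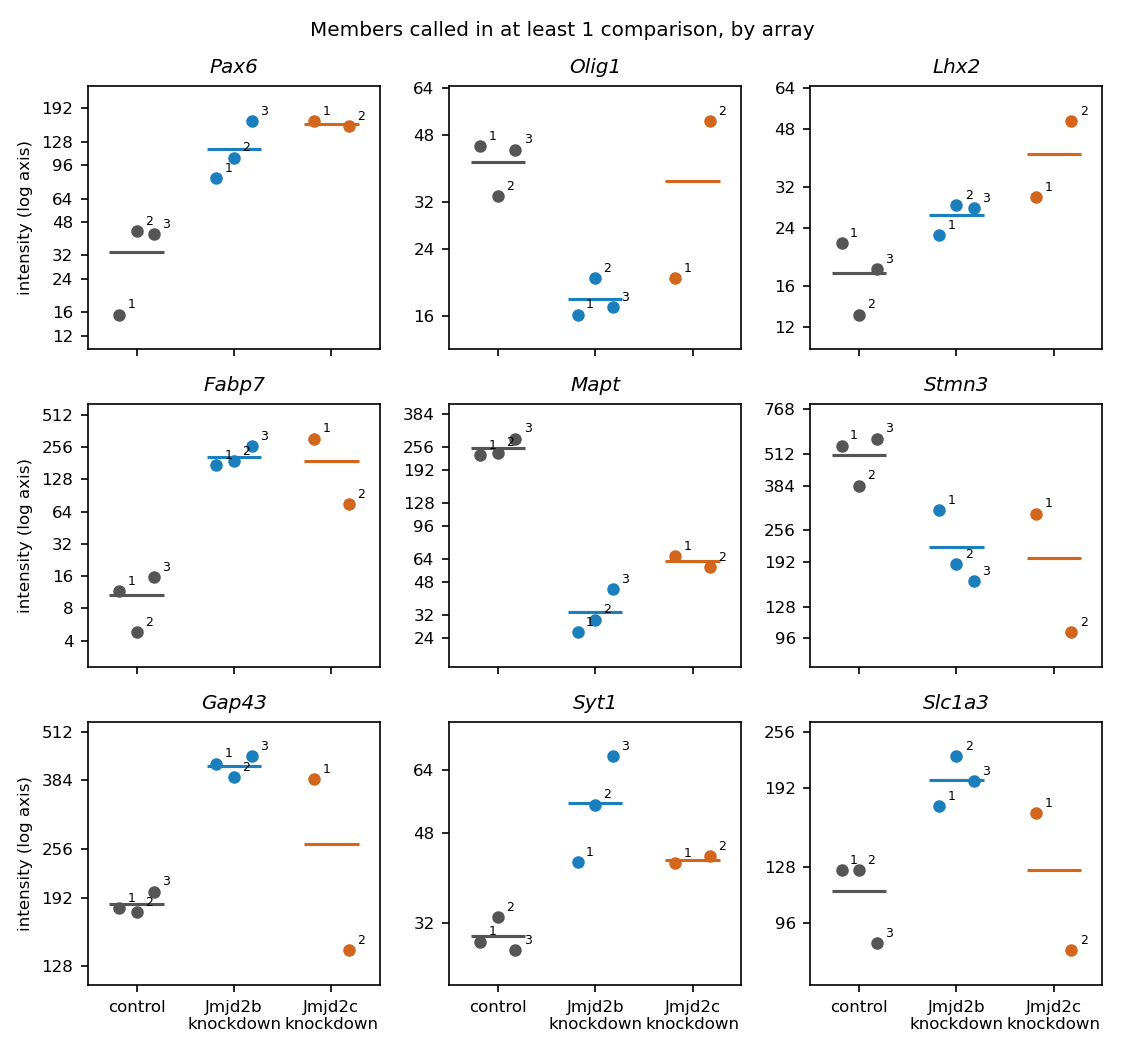
Intensity on a log axis for the 9 members called in at least 1 comparison, 1 point per array labelled with its replicate number, with a line at each group mean. Mapt falls from between 231 and 283 in the controls to between 25.7 and 44.0 in the Jmjd2b knockdown, and the Jmjd2c knockdown arrays 1 and 2 lie far apart for Fabp7, Stmn3, Gap43, Slc1a3 and Olig1.

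Several bright neuron genes came close to the threshold. Ncam1, the neural cell adhesion molecule, read 160, 165 and 211 in the controls against 141, 84.8 and 126 in the Jmjd2b knockdown, a change of −0.56 ± 0.19 (SE, limma, adjusted p = 0.056). With the replicate number as a block its adjusted p was 0.0421. Elavl3, an RNA-binding protein of neurons, read 129, 149 and 124 in the controls against 103, 64.1 and 105 in the knockdown, a change of −0.51 (limma, adjusted p = 0.0662). Both genes had all knockdown arrays below the controls. The dimmer Elavl3 probe sets, tested singly, fell, with changes of −0.67 and −0.80 (limma, adjusted p = 0.0237 and 0.0195), and of the other 6 Ncam1 probe sets, 1425126_at fell by 0.60 (limma, adjusted p = 0.0199). That Ncam1 probe set had a mean intensity of 15.5, and the remaining ones had changes between −0.38 and 0.17, none past the threshold. The other genes above the median level divided in direction. Tubb3, the beta-tubulin used to stain neurons, read 345, 368 and 479 in the controls against 199, 262 and 266 in the knockdown (−0.68, limma, adjusted p = 0.108). Crmp1, a protein of semaphorin signalling in growth cones, read 253, 438 and 333 in the controls against 557, 584 and 1029 in the knockdown (1.02 ± 0.48, SE, limma, adjusted p = 0.157). For both, the groups did not overlap, and Crmp1 was highest on Jmjd2b knockdown array 3. Map2, a microtubule protein of dendrites, read 208, 194 and 191 in the controls against 232, 258 and 278 in the knockdown (0.34, limma, adjusted p = 0.0991). Stmn2 read 5792, 4944 and 5316 in the knockdown, overlapping its controls (−0.17, limma, adjusted p = 0.192), and Dpysl3, a relative of Crmp1, read 279, 302 and 283 in the controls against 255, 238 and 314 in the knockdown (−0.10, limma, adjusted p = 0.823). Elavl4, the synaptic vesicle protein Syp, the vesicle fusion protein Snap25 and the microtubule protein Dcx lay between −0.25 and −0.06. A second Dcx probe set (1448974_at), with a mean intensity of 7.9, fell by 0.60 when tested singly (limma, adjusted p = 0.0209).

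The neuron count depended on which arrays set the spread. Fitted with the controls and the Jmjd2b knockdown alone, or with either Jmjd2c knockdown array 1 or array 2 left out, 9 neuron genes passed in limma, 4 up and 5 down: Ncam1, Elavl3, Tubb3, Crmp1 and Map2 joined the 4, with adjusted p of 0.0415, 0.0487, 0.00816, 0.0101 and 0.0423 in the fit of those groups alone. It was 1 without control array 1, and 2 without control array 3 or without Jmjd2b knockdown array 2 or 3.

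Of the glial genes, Slc1a3, the glutamate transporter of astrocytes and radial glia, read 126, 126 and 86.8 in the controls against 176, 226 and 199 in the Jmjd2b knockdown. The groups did not overlap, with a difference of 0.75 ± 0.23 (SE, limma, adjusted p = 0.0398). All 6 Slc1a3 probe sets, tested singly, rose, by 0.66 to 0.93. With the replicate number as a block the adjusted p was 0.0504, and the call was lost without any 1 of control arrays 1 (0.83, limma adjusted p = 0.0676), 2 (0.83, adjusted p = 0.0628) and 3 (0.60, adjusted p = 0.16) or of Jmjd2b knockdown arrays 1 (0.84, adjusted p = 0.0632), 2 (0.67, adjusted p = 0.142) and 3 (0.75, adjusted p = 0.09). Gfap, the intermediate filament of astrocytes, had a change of 0.13 (limma, adjusted p = 0.622).

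The second comparison set the Jmjd2c knockdown against the same controls. The progenitor genes Fabp7, Pax6 and Lhx2 rose, and the neuron genes Mapt and Stmn3 fell. This made 5 of 35 members (14.3%), beside 9.59% of all genes (4.31% up and 5.28% down), with 3 of 18 progenitor genes (16.7%) and 2 of 15 neuron genes (13.3%). By level, 15.3% of all genes above the median level and 3.92% of the others were called. Medians were 0.10 over the progenitor genes and −0.07 over the neuron genes, and −0.02 over all genes. At an unadjusted p of 0.05, 3 progenitor and 5 neuron genes passed (23.9% of all genes), and the groups did not overlap in 5 progenitor and 5 neuron genes (38.6% of all genes). Because both knockdowns were set against the same 3 controls, their changes are not independent of each other.

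Pax6 read 164 and 154 in the Jmjd2c knockdown, close to each other and above every control, a difference of 1.88 ± 0.31 (SE, limma, adjusted p = 0.00746). The mean over all Pax6 probe sets rose by 0.65 (limma, adjusted p = 0.0177), and the second brightest (1437816_at) had a change of −0.07. In the controls 1437816_at was the brightest of Pax6, so the choice of the probe set used drew on the knockdown arrays. Fabp7 read 306 and 74.5, both far above the controls, a difference of 2.70 ± 0.44 (SE, limma, adjusted p = 0.00721). The arrays themselves were 1.83 apart for Fabp7: the difference from the control was 1.78 without Jmjd2c knockdown array 1 (limma, adjusted p = 0.00291) and 3.61 without array 2 (limma, adjusted p = 0.000481). Mapt read 66.0 and 57.7, below every control and above every Jmjd2b knockdown array, a difference from the control of −1.77 ± 0.19 (SE, limma, adjusted p = 0.00191). Tested singly, the Mapt probe sets 1424719_a_at and 1424718_at fell, with changes of −1.65 and −1.71 (limma, adjusted p = 0.00307 and 0.00265). The dimmest Mapt probe set (1417885_at) had a change of −0.28 (limma, adjusted p = 0.323).

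Lhx2 and Stmn3 passed narrowly, and both calls were lost with array type as a block (0.75 and −1.62, limma adjusted p = 0.112 and 0.0926). Lhx2 read 21.6, 13.1 and 17.9 in the controls against 29.7 and 50.9 in the Jmjd2c knockdown, with no overlap (0.73 ± 0.19, SE, limma, adjusted p = 0.0409; 0.0755 with the replicate number as a block). Its call was lost without Jmjd2c knockdown array 2 (0.46, limma adjusted p = 0.208), control arrays 1 (0.82, adjusted p = 0.0653), 2 (0.63, adjusted p = 0.109) or 3 (0.74, adjusted p = 0.119), and, at 0.73 each, Jmjd2b knockdown arrays 1, 2 or 3 (adjusted p = 0.0615, 0.0649 and 0.0566). Stmn3 read 297 and 101, both below the controls but apart from each other (−1.43 ± 0.39, SE, limma, adjusted p = 0.048). Its call was lost without Jmjd2c knockdown array 2 (−0.72, limma adjusted p = 0.212), control arrays 1 (−1.36, adjusted p = 0.131), 2 (−1.61, adjusted p = 0.0602) or 3 (−1.31, adjusted p = 0.161), and, at −1.43 each, Jmjd2b knockdown arrays 1, 2 or 3 (adjusted p = 0.0531, 0.075 and 0.0574). Without Jmjd2c knockdown array 1 it was −2.14 (limma, adjusted p = 0.00257). The second Stmn3 probe set fell by 1.27 (limma, adjusted p = 0.044). With 1 control or Jmjd2b knockdown array left out, the neuron count was 1, Mapt. Without Jmjd2c knockdown array 2 it was 3, as Gap43 (1.0, limma, adjusted p = 0.00666) and Crmp1 (1.46, limma, adjusted p = 0.0324) passed beside Mapt. Without array 1 it was also 3, as Dpysl3 (1.25, limma, adjusted p = 0.00167) passed beside Mapt and Stmn3, and Neurod1 joined the progenitor genes (−1.01, limma, adjusted p = 0.0452).

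The genes of the Jmjd2b comparison that did not pass here were mostly those on which the Jmjd2c knockdown arrays parted. Gap43 read 386 on array 1 and 141 on array 2, above and below the controls (0.32 ± 0.31, SE, limma, adjusted p = 0.59). Slc1a3 read 169 and 83.7 (0.09, limma, adjusted p = 0.887), and Olig1 read 20.1 and 52.5 (−0.18, limma, adjusted p = 0.711). For these 3 genes 1 array lay on either side of the control mean. Syt1 did not part: it read 41.9 and 43.3, above all controls (0.35, limma, adjusted p = 0.26). Ncam1 (113 and 99.0) and Elavl3 (90.0 and 76.5) were below their controls on both arrays, with changes of −0.67 and −0.59 (limma, adjusted p = 0.0762 and 0.0975). Tested singly, the Ncam1 probe set 1426864_a_at fell by 0.85 (limma, adjusted p = 0.0173), and the second Stmn2 probe set (1423280_at) rose by 0.43 (limma, adjusted p = 0.0317) where the first, at 5621 and 5868, had a change of −0.06. The remaining dimmer Ncam1 probe sets had changes between −0.21 and 0.13, none past the threshold.

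**Figure D3:**
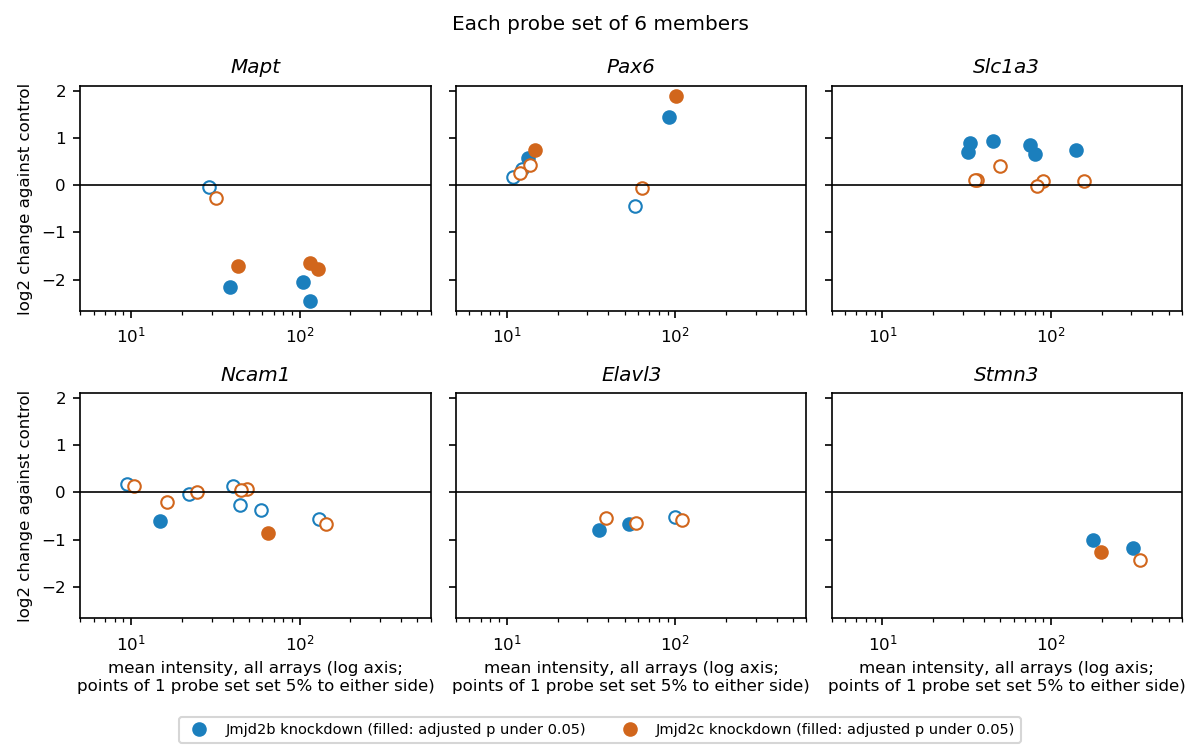
Change against the control of every probe set of 6 members, plotted against the probe set's mean intensity over all arrays (log axis), for the Jmjd2b (blue) and Jmjd2c (orange) knockdowns; filled points passed an adjusted p of 0.05 among all probe sets, and points of 1 probe set are set apart sideways. All 6 Slc1a3 probe sets lie between 0.66 and 0.93 in the Jmjd2b knockdown, while 1 probe set of Mapt lies apart from the others of its gene. The Pax6 probe sets are spread from −0.45 to 1.44 in the Jmjd2b knockdown, with the one used for the gene highest.

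The Jmjd2c knockdown arrays 1 and 2 lay far apart in several members. They were at least 1 apart on the log2 scale in 7 of 35 members and in 3.92% of all genes. Array 1 was the higher in 6 of these: Crmp1 (945 and 189, a gap of 2.23), Fabp7 (1.83), Neurod1 (685 and 189, 1.77), Stmn3 (1.42), Gap43 (1.36) and Tubb3 (572 and 237, 1.22). Dpysl3 was higher on array 2 (300 and 705, a gap of −1.19). Of the 12 members above the median level, 6 were at least 1 apart, against 5.45% of all genes above it. Over all genes with such a gap the direction leaned the other way, with 258 higher on array 1 and 455 on array 2. The target Kdm4c was lower on array 1 than on array 2, by 1.62. With 2 arrays the gap has no test, and these members were picked by their gap.

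**Figure D4:**
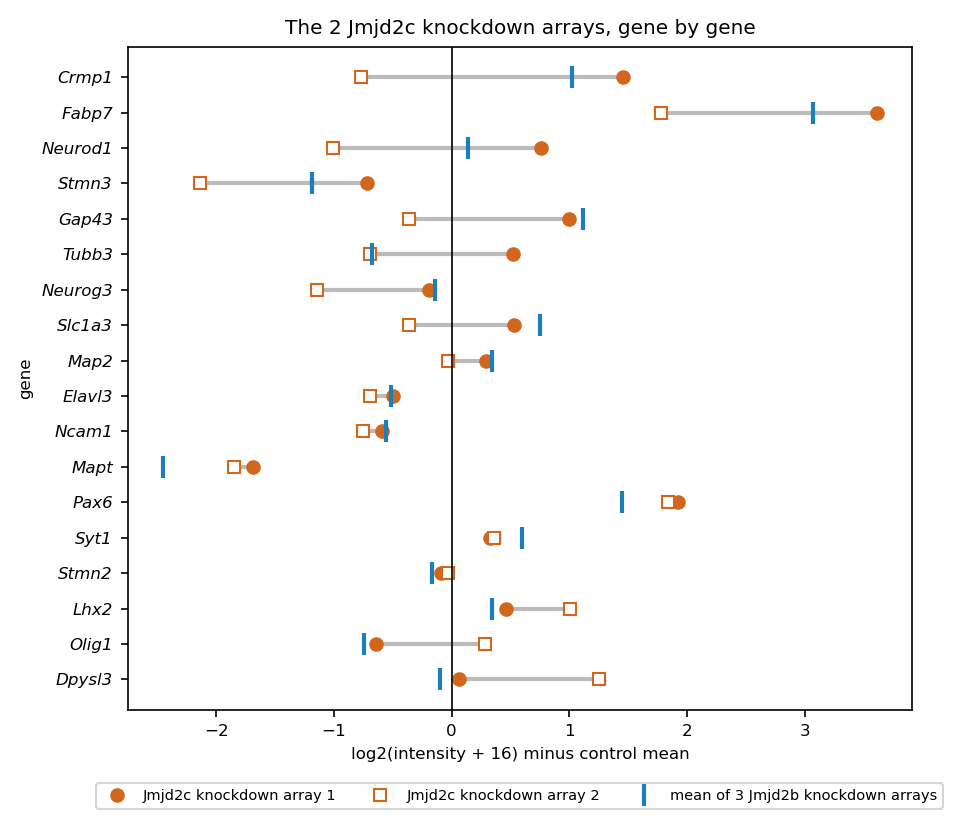
log2(intensity + 16) minus the control mean on Jmjd2c knockdown array 1 (filled circles) and array 2 (open squares) for the 12 members above the median level and 6 dimmer called members, ordered by the gap, with the mean of the 3 Jmjd2b knockdown arrays as a blue bar. Crmp1, Neurod1, Gap43, Tubb3, Slc1a3, Map2 and Olig1 lie on opposite sides of the control mean on these arrays, while Pax6 and Mapt lie close together.

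Set directly against each other, the knockdowns did not differ in any member at an adjusted p of 0.05 in limma, a rule that 0.693% of all genes passed (0.203% higher and 0.489% lower in the Jmjd2c knockdown). The groups did not overlap in 7 members, against 27.1% of all genes. At an unadjusted p of 0.05, 5 members passed (13.1% of all genes): 1 progenitor, 3 neuron and 1 glial gene. Mapt was 0.68 ± 0.19 higher in the Jmjd2c knockdown (SE, limma, adjusted p = 0.15), with both arrays above all 3 Jmjd2b knockdown arrays. The differences were 0.44 for Pax6 and −0.37 for Fabp7 (limma, adjusted p = 0.62 and 0.794), and −0.79 for Gap43 and 0.75 for Dpysl3 (limma, adjusted p = 0.312 and 0.295). These p-values do not show that the knockdowns act alike. Without Jmjd2c knockdown array 1, 2 progenitor and 3 neuron genes and the glial gene Slc1a3 (−1.11, limma, adjusted p = 0.0278) passed, and without array 2, 0 progenitor genes and 1 neuron gene. The progenitor and neuron genes were Olig1 (1.03, limma, adjusted p = 0.022), Fabp7 (−1.29, adjusted p = 0.033), Gap43 (−1.47, adjusted p = 0.00213), Crmp1 (−1.79, adjusted p = 0.0226) and Dpysl3 (1.35, adjusted p = 0.00542) without array 1, and Tubb3 (1.2, adjusted p = 0.0216) without array 2.

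Other neural genes were read from lists of progenitor, neuron and REST genes. Of 33 further progenitor genes measured, 16 rose and 0 fell with Jmjd2b depleted (limma; 18 at an unadjusted p of 0.05, up or down), with a median of 0.29, and 7 rose and 0 fell in the Jmjd2c knockdown (15 at an unadjusted p of 0.05), with a median of 0.44. These were 48.5% and 21.2% of the list, against 24.4% and 9.59% of all genes called in either direction, and the medians over all genes were −0.03 and −0.02. Of the 33 genes, 17 lay above the median level, where 36.7% and 15.3% of all genes were called. The list was chosen with earlier results of these data known, so these shares were not an independent test. Changes were above 0 in 25 of the 33 genes and below 0 in 8 in the Jmjd2b knockdown, and in 24 and 9 in the Jmjd2c knockdown. Sox1, Msi1 and Notch1 lay below every control in the Jmjd2b knockdown, at 46.7%, 70.8% and 71.3% of control, without passing the threshold. Cdh2, the neural cadherin, read 43.7, 63.5 and 47.2 in the controls, 748, 1002 and 798 on the Jmjd2b knockdown arrays and 717 and 852 in the Jmjd2c knockdown. The zinc finger factor Zic2 read 207, 329 and 237 in the controls, 1343, 1531 and 931 in the first knockdown and 1045 and 969 in the other. Both genes were far above the controls on all 5 knockdown arrays. Zic1 changed by 1.72 and 0.71 (limma, adjusted p = 0.00029 and 0.0671).

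Of 35 further neuron genes, 3 rose and 5 fell under the Jmjd2b hairpin, and 3 rose and 3 fell in the Jmjd2c knockdown. These were 22.9% and 17.1% of the list, against 24.4% and 9.59% of all genes, so the first share was near the background. The neurofilament gene Nefm read 30.3, 29.8 and 23.0 in the controls, 700, 1065 and 1475 on the Jmjd2b knockdown arrays and 190 and 96.6 in the Jmjd2c knockdown. Its partner Nefl rose by 3.09 and 1.80 (limma, adjusted p = 1.5e-05 and 0.00174). These were the 2 genes of the list that differed between the knockdowns, lower in the Jmjd2c knockdown by −2.79 for Nefm and −1.28 for Nefl (limma, adjusted p = 0.0137 and 0.0204). The tubulin Tubb2b fell by 0.57 under the Jmjd2b hairpin (limma, adjusted p = 0.000434), and the reticulon Rtn1 fell in both, with changes of −1.0 and −0.98 (limma, adjusted p = 0.00104 and 0.00792). In the Jmjd2b knockdown, calls went both ways among the member neuron genes and among the further ones.

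REST itself read 2750, 3810 and 3685 in the controls, 2585, 2119 and 2831 on the Jmjd2b knockdown arrays and 2718 and 1879 in the Jmjd2c knockdown. Its changes were −0.44 and −0.58 (limma, adjusted p = 0.091 and 0.0862). Of 14 genes of REST and its corepressors measured, 3 rose and 2 fell on the Jmjd2b knockdown arrays and 1 rose in the Jmjd2c knockdown. These were 35.7% and 7.14% of the list, against 24.4% and 9.59% of all genes; 13 of the 14 lay above the median level, where 36.7% and 15.3% of all genes were called. The scaffold Sin3a changed by −0.55 and the demethylase Kdm1a by −0.34 under the Jmjd2b hairpin (limma, adjusted p = 0.00603 and 0.0117). The methyltransferase Ehmt1 rose by 0.47 there (limma, adjusted p = 0.00808), and the phosphatase Ctdsp1 rose by 1.01 and 0.86 (limma, adjusted p = 0.00628 and 0.0464).

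Marker lists of other cell types were read in the same way. Of 7 neural crest markers measured, Twist1 and Ets1 rose in both knockdowns (28.6% of the list in each), and their summed intensity was 368 to 426 in the controls, 670 to 766 on the Jmjd2b knockdown arrays and 591 to 643 in the Jmjd2c knockdown. Of 10 fibroblast markers, 2 rose and 2 fell on the Jmjd2b knockdown arrays and 2 fell in the Jmjd2c knockdown, with sums of 632 to 679, 379 to 415 and 414 to 475; Lum, Postn and Fap had means under 16. Of 7 endocrine markers, read because Neurog3 and Neurod1 also act in the endocrine pancreas, 2 rose on the Jmjd2b knockdown arrays and 1 in the Jmjd2c knockdown, with sums of 133 to 175, 157 to 196 and 177 to 190; Ins2 and Iapp had means under 16. Of the 12 ES cell markers, 1 rose and 8 fell on the Jmjd2b knockdown arrays and 1 rose and 4 fell in the Jmjd2c knockdown. The shares called in the Jmjd2b and Jmjd2c comparisons were 40% and 20% of the fibroblast list, 28.6% and 14.3% of the endocrine list and 75% and 41.7% of the ES cell list, against 24.4% and 9.59% of all genes. All 12 ES cell markers lay above the median level, where 36.7% and 15.3% of all genes were called. Of the neural crest and fibroblast lists 1 gene each lay above it, and of the endocrine list 0. Among all genes not above it, 12.2% and 3.92% were called. The part of these other lists in the members' changes was not tested.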

How the data were processed

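Per the labels' protocols, total RNA was turned into biotinylated cRNA as the array maker prescribes. The deposited table holds the authors' intensity values on a linear scale, 1 per probe set. The background correction and scaling are not given in the sources used here. Per the platform annotation, 34945 of 45101 probe sets had 1 symbol, 932 had several, 9160 had none listed and 64 were array controls. The 35 measured members had 84 probe sets, and 13 members had only 1. Values were taken as log2(intensity + 16), without further normalization or filter. limma 3.58.1 (R 4.3.3; lmFit and eBayes with a trend) was fitted to all 8 arrays and 18193 genes, two-sided, with Benjamini-Hochberg adjustment over all genes in each comparison. The code was tested on simulated data. The number of arrays limits the precision.

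Members and lists were chosen with earlier results of these data known. Full values are given for members called in any comparison and for up to 8 uncalled members above the median level by smallest p, and for up to 4 genes of other lists by smallest p. Same-numbered control and Jmjd2b knockdown arrays deviated together (r = 0.176, 0.111 and 0.116, over genes). For the Jmjd2c knockdown with the controls r was 0.0408 and 0.0633 over 2 pairs. Between the knockdowns, same-numbered arrays had r of −0.0597 and 0.142. Jmjd2b knockdown array 3 and Jmjd2c knockdown array 1, numbered differently, had 0.167. Whether the numbers pair the samples was thus unclear. The main fit left pairing out, and an alternative took the replicate number as a block. Alternatives varied the added constant, the probe set, the scaling, the level filter, blocks for replicate number, array type and shared values, the groups in the fit, and each array left out. Testing each probe set on its own was added after seeing the data. Promoter windows came from RefSeq.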

Additional observations from a re-analysis of the deposited data

How the results depend on the processing

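No called change of a member turned direction in any alternative. The Mapt fall in the Jmjd2b knockdown passed in all 20, while the Slc1a3 rise was lost in 12 of 21 and the Stmn3 fall in the Jmjd2c knockdown in 14 of 20. Array type bounds what can be said. Of the arrays with the floor only Jmjd2b knockdown array 2 was a knockdown, and of those without it only control array 3 was a control. Within the arrays with the floor at 1, which hold no Jmjd2c knockdown array, the Jmjd2b comparison called 1178 genes in all, 1 progenitor and 2 neuron genes. Within the arrays without it, it called 102, 0 and 1, and the Jmjd2c comparison called 0 genes of any kind, as did the comparison of the knockdowns over all genes. The changes there, from fewer arrays and all against control array 3 alone, were: Pax6 1.21 and 1.60, Fabp7 2.86 and 2.43, and Mapt −2.58 and −1.94, for the Jmjd2b and Jmjd2c knockdowns. With the sets of arrays that share values as a block, the Jmjd2b comparison called 2 neuron genes, Mapt and Ncam1. It lost Stmn3 (limma adjusted p = 0.125), Gap43 (0.103), Syt1 (0.0642), Olig1 (0.14) and Slc1a3 (0.084). The Jmjd2c comparison called 9 genes in all, with 0 progenitor and 0 neuron genes, and the knockdowns differed in 5 genes. Against the control, Mapt was at −2.24 (limma adjusted p = 0.0653), Pax6 at 1.14 (adjusted p = 0.366) and Fabp7 at 2.17 (adjusted p = 0.305). Both Jmjd2c knockdown arrays shared a level of this block with Jmjd2b knockdown array 3 and with no control. The Jmjd2c comparison thus ran only through Jmjd2b knockdown arrays. Its SE rose from 0.309 to 0.501 for Pax6 and from 0.435 to 0.832 for Fabp7. With array type as a block the Jmjd2c comparison called 1057 genes and the knockdowns differed in 6. With only the groups compared in the fit, the Jmjd2b comparison called 9 neuron genes, the Jmjd2c comparison 876 genes and 1 neuron gene, and the knockdowns differed in 2. Among genes above the median level, with 2 progenitor genes left to test, 0 progenitor genes passed in either comparison with the control and 1 neuron gene in that of Jmjd2c, Stmn3, where Mapt was not tested. The count was also 1, but Mapt with Stmn3 lost, with the mean of all probe sets, with quantile normalization and with scaling to the 75th percentile (Stmn3 limma adjusted p = 0.0535, 0.0554 and 0.0531). Slc1a3 was lost with the last 2 (adjusted p = 0.06 and 0.0623). The cause of these shifts was not tested.

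With each array left out in turn, the Jmjd2b comparison called 2635 (without control array 3) to 5630 genes, 2 to 3 progenitor and 1 to 9 neuron genes. It called 2748 without Jmjd2b knockdown array 2. The Jmjd2c comparison called 469 (without control array 3) to 2935 genes (without Jmjd2c knockdown array 1), 864 without control array 1, 2 to 4 progenitor and 1 to 3 neuron genes. The knockdowns differed in 2 (without Jmjd2b knockdown array 2) to 804 genes (without Jmjd2c knockdown array 1), 0 to 2 progenitor and 0 to 3 neuron genes. That number was 596 without Jmjd2c knockdown array 2, 52 and 68 without Jmjd2b knockdown arrays 1 and 3, and 38, 31 and 31 without control arrays 1, 2 and 3. With the replicate block the comparisons called 4319, 1391 and 150 genes; it changed the calls of Slc1a3, Lhx2 and Ncam1 given above and no other call of a measured member. Of the further progenitor genes, Msx1 rose by 1.59 in the Jmjd2c knockdown, and had a change of −0.05 once probe sets of related transcripts were left out.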
